A study of Drosophila melanogaster with 3 samples.

Results

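The weaker repeated peaks are 5203 of the 30000 peaks that the authors called on pooled data for the Drosophila protein CG11504. They were chosen by a rule on measured values. A member's summit, the highest point of the peak, is absent from the authors' list of peaks that passed a threshold on the irreproducible discovery rate (IDR), yet lies within 100 bp of a summit in the peak list of each of the 3 replicates. Pooled peak strength and replicate summit positions therefore selected the members. Values of either kind are given here as a description, without a test. The remaining pooled peaks are the 10650 IDR peaks and 14147 other peaks, which were matched in 0, 1 or 2 replicate lists. Start sites, introns, genes and base composition played no part in the rule, and these were compared between the 3 sets.

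All samples were whole Drosophila melanogaster embryos of 0 to 18 h, males and females pooled, from 1 transgenic line that stably expresses CG11504 with green fluorescent protein (GFP) fused to its C-terminal end. Chromatin was broken by sonication into pieces of 200 to 800 bp, an anti-GFP antibody was used for the pulldown, and there were 3 biological replicates of 1 group, with no second genotype or age. All lists were called against 1 shared control alignment, and no library from untagged flies was analysed here. Since whole embryos were used, a weak peak in every cell and a strong peak in few cells cannot be told apart.

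In chromatin immunoprecipitation followed by sequencing (ChIP-seq), a protein is crosslinked to DNA, the DNA attached to it is collected and sequenced, and reads pile up into peaks around the places where the protein was attached. Peak callers run at a relaxed setting return a long ranked list whose lower end mixes weak sites with background. The IDR asks how far ranks repeat between replicates and sets where to stop, so a peak can recur at the same place in every replicate and still fall below the line. CG11504 is named by its annotation number alone. A promoter is the stretch around a transcription start site where the transcription machinery assembles, while enhancers, which control when and where a gene is used, often lie in introns or between genes.

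The sequences shown first are those of the strongest members in introns, between genes and at promoters, each as the pooled summit with 50 bases on either side, so that their base composition can be read beside the values. They are from the NCBI reference genome in dm6 coordinates, plus strand, and hold no annotated untranslated bases. Capitals mark unbroken runs of at least 6 A or T. Each line names the gene with the nearest start site.
vnd, chrX:600342-600442: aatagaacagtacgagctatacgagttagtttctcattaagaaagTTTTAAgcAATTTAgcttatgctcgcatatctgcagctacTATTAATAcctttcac
dlg1, chrX:11378603-11378703: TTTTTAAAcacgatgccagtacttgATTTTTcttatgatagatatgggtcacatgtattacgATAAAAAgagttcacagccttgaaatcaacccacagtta
Bsg, chr2L:8099782-8099882: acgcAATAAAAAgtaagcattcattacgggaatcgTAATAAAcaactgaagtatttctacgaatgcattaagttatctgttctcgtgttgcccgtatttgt
CG43407, chr3L:19055189-19055289: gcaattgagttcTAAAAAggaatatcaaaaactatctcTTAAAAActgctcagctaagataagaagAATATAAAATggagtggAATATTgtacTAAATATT
Zif, chr3R:6460935-6461035: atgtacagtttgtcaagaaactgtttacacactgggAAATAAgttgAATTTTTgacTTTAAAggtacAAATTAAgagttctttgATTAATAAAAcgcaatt
mir-287, chr2L:17573254-17573354: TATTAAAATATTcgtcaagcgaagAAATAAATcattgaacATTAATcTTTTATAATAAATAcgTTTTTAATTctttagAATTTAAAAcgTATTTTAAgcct
beat-IIa, chr3R:17366189-17366289: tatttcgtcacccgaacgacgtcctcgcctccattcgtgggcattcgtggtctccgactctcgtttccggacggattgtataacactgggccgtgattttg
Prp16, chrX:14211935-14212035: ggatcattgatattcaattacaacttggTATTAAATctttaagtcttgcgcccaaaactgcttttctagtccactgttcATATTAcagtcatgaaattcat
dy, chrX:11778978-11779078: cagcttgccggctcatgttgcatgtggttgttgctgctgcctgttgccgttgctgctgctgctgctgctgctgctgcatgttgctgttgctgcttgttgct

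The first 3 lie in introns, the next 3 between genes and the last 3 at promoters. The intergenic windows held the most capitals, with 37, 36 and 66 bases in such runs near CG43407, Zif and mir-287. The intron windows at vnd, dlg1 and Bsg held 20, 21 and 15. At the promoters of beat-IIa and dy there was no such run, and 54.5% and 57.4% of the bases were G or C, while the Prp16 window held 14 bases in runs and 32.7% GC. The Prp16 summit lay 207 bp from an IDR summit. The dy window carries many repeats of GCTGC.

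The strongest member, and the first pooled peak outside the IDR list, lay in an intron of spdi, 9350 bp downstream of the start of vnd, a homeobox gene of the ventral nerve cord (chromosome X, 600167 to 600616, dm6). Its pooled rank was 10651 and its signal, the value that the authors' caller gave the peak on a scale that is not stated, was 235.727. In replicates 1, 2 and 3 the matched signal was 99.2, 112 and 25.1, at ranks 9465, 10029 and 23632. It was therefore well up the lists of replicates 1 and 2 and low in replicate 3. The weakest IDR peak, at the promoter of CG9107 (2L, 6024337 to 6024786), had rank 10650 and signal 235.751, so the line between the sets falls between nearly equal pooled signals.

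The other limit of the rule was the distance. A peak 1893 bp from the start of soti was the strongest member whose largest summit distance was exactly 100 bp, and a peak 4639 bp upstream of tna, just beyond the limit in replicate 3, was not a member. Largest distances of 91 to 100 bp occurred in 468 pooled peaks outside the IDR list, and distances of up to 10 bp more in 350. The strongest peak outside both sets lay in an intron of Ggt-1 at rank 10658, with a largest distance of 175 bp. The weakest member lay in an intron of toc at rank 29825, with a pooled signal of 45.3.

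The 15 strongest members had pooled signals of 235.275 to 235.727, and their places show the mixture in the set. An intron of dlg1, a scaffold protein of epithelial junctions and synapses, held the member of rank 10653 (X, 11378428 to 11378877), with replicate signals of 52.5, 115 and 73.1. An intron of Bsg, an immunoglobulin-type membrane protein, held the next (2L, 8099607 to 8100056), with 79.6, 122 and 44.8. Replicate 2 gave the highest signal of the 3 in both. Signal scales were not matched between replicates, so ranks are the safer guide.

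Further introns with one of these members belonged to jing, a zinc finger regulator (rank 10656), and hth, a homeobox partner of Hox proteins (10657). Others were in beat-IIb (10659), CG2528 (10663), cdi (10665) and scb, an integrin alpha subunit (10666). The hth member had replicate ranks of 11354, 26591 and 13895, low in replicate 2, and the beat-IIb member 29134, 10787 and 11802, low in replicate 1. The member nearest to Pp2C1, a protein phosphatase gene, lay in a 5′ UTR, 530 bp from the start. Members between genes were nearest to CG43407, Zif, mir-287 and CG42713, at ranks 10660, 10661, 10662 and 10664. Only 1 of the 15 lay at a promoter, 120 bp upstream of the start of beat-IIa, one of the Beat family of immunoglobulin-type proteins first known from motor axon guidance (3R, 17366014 to 17366463). Its replicate signals were 90.2, 94.9 and 75.8 and its ranks 10131, 11334 and 10598.

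As the rule implies, members sat below the IDR peaks and mostly above the other pooled peaks. Their pooled ranks ran from 10651 to 29825 with a median of 14321, and their median pooled signal was 149 against 555 for IDR peaks and 71.9 for the other peaks. In the replicate lists their median ranks were 16554, 16211 and 16233. As a set, members thus had like median ranks in the 3 lists. Single members could differ widely between lists, as those of vnd, hth and beat-IIb did. Replicate summits lay a median of 15, 17 and 27 bp from the pooled summit in replicates 1, 2 and 3, and the median of the largest of the 3 distances was 50 bp, against 28 bp for the 9790 IDR peaks matched in all 3. The pooled signal was close to the sum of the 3 replicate signals, with a median ratio of 0.997. The deposited −log10 q-value of members ranged from 0.322 to 3.37 with a median of 1.88.

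Repetition in all 3 lists fell steadily down the pooled ranks. Of peaks ranked 10651 to 12000, 76.6% were members. The share was 68.8% at ranks 12001 to 14000, 54.6% at 14001 to 16000, 42.5% at 16001 to 18000 and 23.5% at 18001 to 20000. Below that it was 7.04% to rank 25000 and 0.6%, or 30 peaks, to rank 30000. Each list stops at 30000 peaks, which limits matches among the weakest. Among IDR peaks ranked 8001 to 10650, 84.0% were matched in all 3 lists, so there was no step at the IDR line. Of the 19350 pooled peaks outside the IDR list, 5203 (26.9%) were matched in 3 lists, 6940 in 2, 5840 in 1 and 1367 in 0. Of the 6940, 2335 lacked replicate 1, 2004 replicate 2 and 2601 replicate 3.

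**Figure D1:**
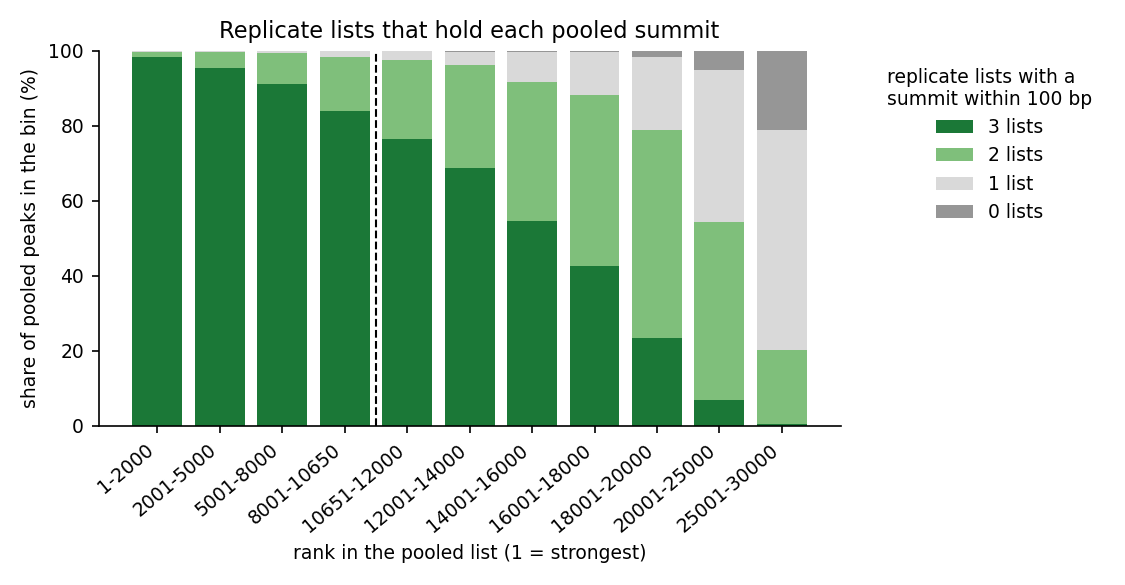
Share of pooled peaks (y axis, percent) whose summit lies within 100 bp of a summit in 3, 2, 1 or 0 replicate lists, by pooled rank (x axis, 1 is the strongest). The dashed line marks the end of the IDR list at rank 10650; the dark green bars to its right are the weaker repeated peaks and shrink from 76.6% to 0.6%.

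Many peaks of like strength that missed the rule had replicate summits a little further away. Of the 316 non-members ranked 10651 to 12000, 206 (65.2%) had a summit within 200 bp in every replicate and 252 (79.7%) within 300 bp. In 41 (13.0%) at least 1 replicate had no summit within 1000 bp. At such distances the summit can belong to a neighbouring peak.

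Weaker repeated peaks were at promoters about as seldom as the other weak peaks, and far less often than IDR peaks. A summit was counted at a promoter when it lay within 500 bp of any annotated start site. This held for 863 members (16.6%, 95% exact binomial interval 15.6 to 17.6), for 3478 IDR peaks (32.7%, 31.8 to 33.6) and for 2159 other peaks (15.3%, 14.7 to 15.9). Introns held 50.2% of members, 43.4% of IDR peaks and 50.2% of other peaks. Intergenic sequence held 29.4%, 20.4% and 29.1%. Coding exons held 0.788%, 0.901% and 1.79%, 5′ UTRs 0.653%, 0.714% and 0.834%, and 3′ UTRs 1.19%, 0.854% and 1.66%. The median distance to a start site was 3112 bp for members, 1464 bp for IDR peaks and 3178 bp for other peaks.

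Against IDR peaks, members had lower odds of being at a promoter (odds ratio 0.410, 95% interval 0.376 to 0.447, adjusted p = 3.3e-90, n = 15853 peaks). Their odds were higher of being in an intron (1.31, 1.21 to 1.42, adjusted p = 3.73e-11) or between genes (1.62, 1.49 to 1.77, adjusted p = 1.72e-26), over the same n = 15853 peaks. The odds ratios for 5′ UTRs (0.915), coding exons (0.873), 3′ UTRs (1.40) and non-coding exons (1.11) were not past the threshold of 0.05, with adjusted p of 0.672, 0.608, 0.0597 and 0.608. The 3′ UTR ratio was past it, at 1.48 to 1.60, when any 1 of the 3 replicates was not required. These tests are logistic regressions over peaks with errors clustered on 100 kb windows, a Wald test and Benjamini-Hochberg adjustment over 7 position classes. The 2 sets do not overlap in pooled strength, so being weaker and being outside the IDR list cannot be told apart. Promoter share fell with rank within the IDR list too, from 46.4% at ranks 1 to 2000 to 26.0% at ranks 8001 to 10650, and was 19.9% in members of ranks 10651 to 12000.

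Against other pooled peaks the answer depends on whether strength is taken into account. Members are the stronger of the 2 sets, and their raw promoter share was slightly higher, 16.6% against 15.3%. Within bins of pooled rank it was lower: 19.9% of members against 25.9% of other peaks at ranks 10651 to 12000, 17.7% against 24.6% to rank 14000 and 16.4% against 21.8% to rank 16000. From there on the shares were 14.4% against 17.3%, 14.0% against 17.6% and 11.6% against 14.3%, and in the last bin, with 30 members, 16.7% against 11.9%. Members were thus below the others in 6 of the 7 bins. With log2 of the pooled signal in the regression, the promoter odds ratio was 0.732 (0.657 to 0.816, adjusted p = 1.06e-07, n = 19350 peaks). Without that term it was 1.10 (adjusted p = 0.0510, n = 19350 peaks), in the opposite direction.

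**Figure D2:**
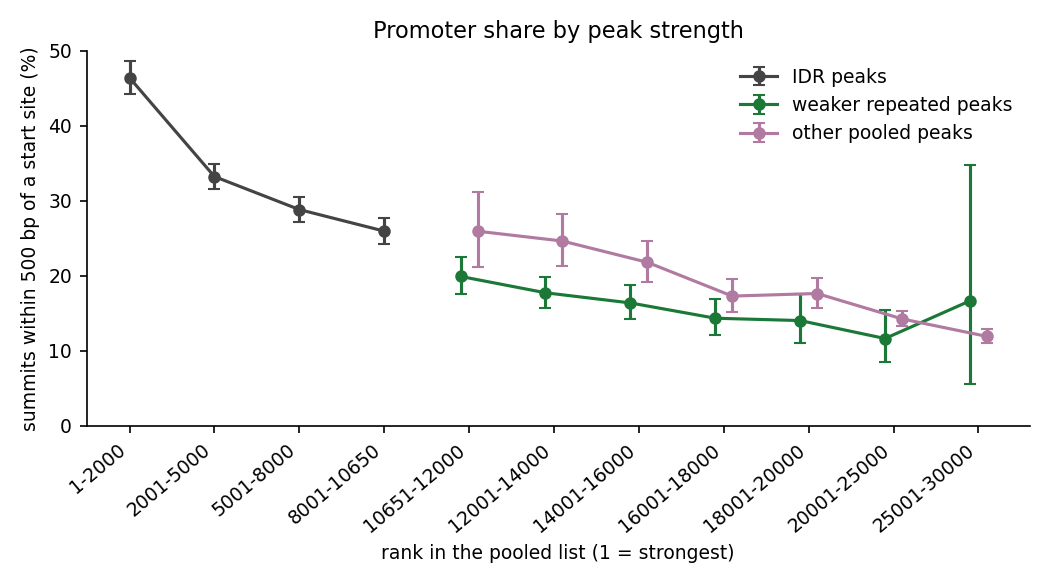
Share of summits within 500 bp of an annotated start site (y axis, percent) by rank in the pooled list (x axis), for IDR peaks, weaker repeated peaks and other pooled peaks; bars are 95% exact binomial intervals over peaks. The weaker repeated peaks lie below the other pooled peaks in every bin to rank 25000, for example 19.9% against 25.9% in the first, and above in the last, which has 30 of them.

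Of the other classes, intergenic sequence and 5′ UTRs passed the test at equal pooled strength. The intergenic odds ratio of members against other peaks was 1.21 (1.10 to 1.33, adjusted p = 0.000432), but when replicate 1 was not required it was 0.978 (adjusted p = 0.57, n = 19350 peaks). The 5′ UTR odds ratio was 0.541 (0.337 to 0.866, adjusted p = 0.0248) on 34 members, and it was not past the threshold when replicate 1 or replicate 2 was not required (adjusted p = 0.556 and 0.328, n = 19350 peaks). Introns (1.05), coding exons (0.693), 3′ UTRs (0.899) and non-coding exons (1.23) were not past it, with adjusted p of 0.274, 0.0946, 0.543 and 0.274. When replicate 1 was not required, introns (1.15, adjusted p = 0.000793) and coding exons (0.680, adjusted p = 0.0307) were, with n = 19350 peaks.

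Each replicate list was also read by its own summits. Replicate summits that matched members were at promoters in 16.5%, 16.7% and 16.4% of cases in replicates 1, 2 and 3, and those that matched IDR peaks in 32.4%, 32.6% and 32.4%. The difference averaged -15.9 percentage points. The rule places each replicate's matched summits at the same 5203 loci, so these shares had to lie close to the pooled ones and are no independent repeat. Summits that matched other pooled peaks were at promoters in 15.6%, 15.2% and 17.2%, so members were higher in replicates 1 and 2 and lower in replicate 3 (two-sided exact sign permutation p = 0.5, where 3 replicates can give no less than 0.25). At equal replicate signal the promoter odds ratio of members against other peaks was 0.932 (0.841 to 1.03), 1.01 (0.910 to 1.12) and 0.776 (0.701 to 0.860). Replicate 3 alone was past the threshold (Wald p = 1.16e-06, 11220 summits in that list), and over the 3 log odds ratios the exact p was 0.5. With strength measured within each list, the lower promoter share was thus past the threshold in replicate 3 only. These fits took only other peaks with a summit in that list, 6517, 7188 and 6014 summits in replicates 1, 2 and 3. Because the exact p cannot go below 0.25, it cannot decide whether the lower share repeats.

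**Figure D3:**
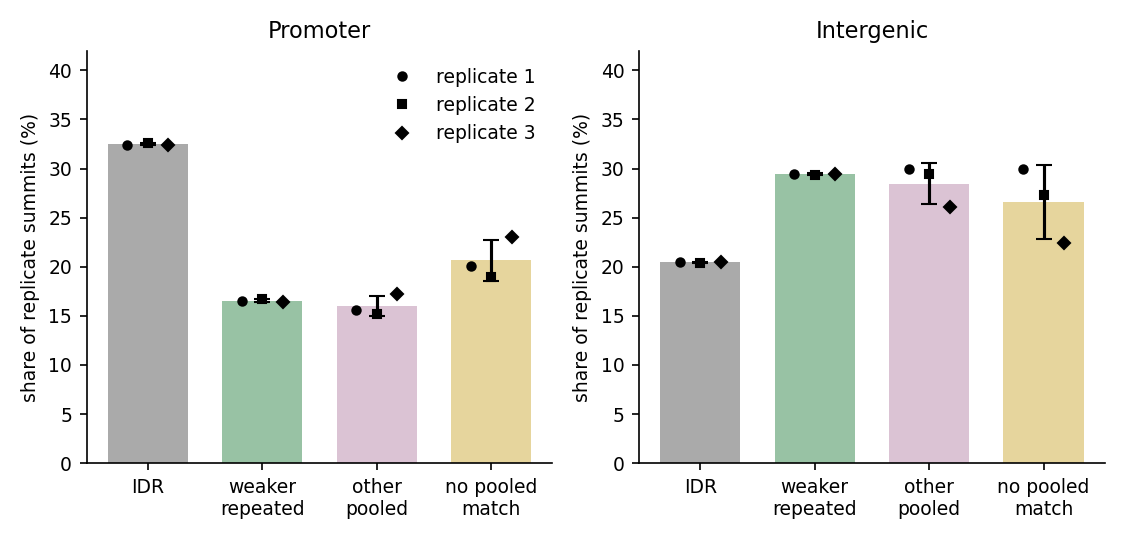
Share of replicate summits at promoters (left, percent) and between genes (right, percent), for summits that match IDR peaks, weaker repeated peaks, other pooled peaks or no pooled peak; bars are means, error bars SD over the 3 replicates, and each mark is 1 replicate. The rule ties the summits of the weaker repeated peaks to the same loci in each replicate. Weaker repeated peaks (16.5% ± 0.151 at promoters, 29.4% ± 0.0862 between genes) stand well below and above the IDR peaks, while the other pooled peaks overlap them at promoters.

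Summits within a replicate list that matched no pooled peak were at promoters in 20.1%, 19.0% and 23.0% of cases, above the members in each replicate (mean difference -4.13 points). These unmatched summits stood at median ranks of 22639 to 23113.5.

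Where members did lie at a promoter, they lay upstream of the start site less often than IDR peaks. Upstream of the nearest start were 529 of 863 (61.3%, 58.0 to 64.6), with a median offset of -57 bp. IDR promoter summits were upstream in 79.7% with a median offset of -118 bp, and other peaks in 58.4% with -49 bp. The odds ratio of lying upstream was 0.403 against IDR promoter peaks (0.344 to 0.472, Wald p = 2.53e-29, n = 4341 peaks) and 1.10 against other peaks at equal strength (0.912 to 1.33, p = 0.316, n = 3022 peaks). With a promoter window of 250 bp the latter was 1.27 (p = 0.042, n = 1978 peaks). Members and IDR promoter peaks do not overlap in pooled strength, so strength and set cannot be told apart in the former. The side of the start site was added after its values were seen. The type of the nearest gene was close to that of other promoter peaks. Protein-coding genes had the nearest start for 78.3% of promoter members, 89.9% of IDR and 77.4% of other promoter peaks. Long and other unclassified non-coding RNAs had it for 16.6%, 8.80% and 18.0%, and tRNA genes for 3.82% (33 summits), 0.834% and 3.43%. These shares of RNA types were not tested.

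A weak summit can be a shoulder of a strong one. The smallest distance from a pooled summit to another summit of the IDR list was 199 bp. Within 500 bp of an IDR summit lay 540 members (10.4%, 9.56 to 11.2), against 10.9% of other pooled peaks. Nearness was more frequent at promoters, with 20.9% of promoter members and 8.29% of the rest. This was common to all sets, with 23.4% and 8.59% in other pooled peaks and 19.6% and 14.6% in IDR peaks. The median distance to the nearest IDR summit was 2108 bp for members and 2206 bp for other peaks. At equal strength the odds ratio of members for being within 500 bp of an IDR summit was 0.502, a description with no test, since the rule used IDR and replicate summit positions. It moved with the rule, to 0.921 with matches within 50 bp, 0.968 when replicate 3 was not required, and 2.49 with matches within 200 bp, where the IDR summit's own replicate summit can serve as the match.

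A group of 13 members, noticed after their values were seen, ranked within the first 10650 in each of the 3 replicates and yet outside it in the pooled list, so that a low pooled signal was part of the choice. All 13 lay 199 to 295 bp from an IDR summit, and their pooled signal was 0.0575 to 0.620 of the sum of their replicate signals, against a median of 0.997 over all members. One lay in an intron of Fas3, a cell adhesion gene (2L, 18363861 to 18365351), 295 bp from an IDR summit of pooled rank 383. Its replicate signals were 427, 646 and 287, at ranks 2278, 1748 and 2892, whereas its pooled signal was 87.8 at rank 19940. Others were nearest to regulators of development, among them Oli, Lim1 and SoxN, and to beta-Spec, Lmpt, GEFmeso, Shrm, tnc, Tsp96F, nrv1, Art4 and CG11964. The neighbouring IDR summit was itself matched in all 3 replicates for 12 of the 13. At the other end, 852 members (16.4%) were within the first 10650 of at least 1 replicate, and 2372 (45.6%) within rank 20000 in all 3.

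Member summits reached 714 of 13945 protein-coding genes within 500 bp of a start site, and 315 of these (44.1%) had an IDR summit there as well. The other 399 genes, 2.86% of all protein-coding genes, had a member and no IDR summit. For comparison, 3196 genes (22.9%) had an IDR summit, 641 (4.60%) only other pooled summits, and 9709 none. When only 2 replicates were required, the 399 became 519 to 537, and with matches within 50 bp it was 197.

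Genes of the Notch, Wnt, Hedgehog, EGFR and Dpp pathways, which carry signals between embryonic cells, had the highest share of such genes among 20 listed groups: 5 of 30 (16.7%) beside 16 with an IDR summit. These groups are described by counts beside the 2.86% of all genes, with no test, and several hold few genes. The 5 were fng, Ser, hh, dpp and arm. For fng, which encodes a glycosyltransferase that modifies Notch, the summit was 33 bp downstream of a start (3L, 20949395 to 20949550). Its pooled rank was 11019, and its replicate signals were 92.5, 58.9 and 82.2. For Ser, a Notch ligand, it was 32 bp downstream (3R, 27194010 to 27194459) at pooled rank 12509, with 61.4, 63.2 and 51.5. The 3 Ser values lay close together.

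For hh, the Hedgehog ligand, the summit was 177 bp upstream (3R, 23141858 to 23142307) at pooled rank 12161, with replicate signals of 83.3, 37.9 and 66.6. For dpp, the BMP-type ligand, it was 7 bp downstream (2L, 2454519 to 2454968) at rank 14083, with 54.3, 49.6 and 55.5. For arm, the Drosophila beta-catenin, it was 162 bp upstream of the nearest start but inside the annotated gene (X, 1900110 to 1900559). Its rank was 14925, with 39.0, 73.2 and 44.7. The hh summit was lowest, and the arm summit highest, in replicate 2. All 5 were at least 766 bp from an IDR summit. The windows of hh and arm, the 2 of the 5 free of untranslated bases, are shown because they differ in composition: 50.5% GC at hh and 29.7% at arm.
hh, chr3R:23142033-23142133: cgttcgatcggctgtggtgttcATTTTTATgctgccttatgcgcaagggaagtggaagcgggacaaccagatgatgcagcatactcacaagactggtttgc
arm, chrX:1900285-1900385: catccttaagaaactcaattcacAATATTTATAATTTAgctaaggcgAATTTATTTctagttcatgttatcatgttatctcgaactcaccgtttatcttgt

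Cell surface proteins of the Beat, Side, Dpr and DIP families, which serve recognition between neurons, had 4 of 54 (7.41%), beside 13 with an IDR summit. These were dpr13 (pooled rank 11027), dpr10 (11090), dpr17 (14344) and dpr1 (19071), and all 4 summits lay within 30 bp of a start site. The dpr13 summit (2R, 18007648 to 18008097) had replicate signals of 51.5, 80.9 and 94.1, and the dpr1 summit (2R, 20698284 to 20698733) 30.9, 43.5 and 23.8. The potassium channel genes KCNQ (rank 11872, 56 bp upstream) and Shal (15899, 89 bp downstream) made 2 of 16 voltage-gated channels (12.5%). Segmentation genes had 2 of 26 (7.69%), hh again and the pair-rule gene ftz, whose summit lay 90 bp upstream at rank 20715 with replicate signals of 37.2, 57.0 and 18.9.

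Odorant, gustatory and ionotropic receptors had 3 of 179 (1.68%), namely Gr63a, a subunit of the carbon dioxide receptor, Ir87a and Gr22e, all 253 to 398 bp upstream of the start. A single gene each was found among cytoplasmic ribosomal proteins (RpS5b of 93), oxidative phosphorylation (ND-13A of 86), cuticle proteins (Cpr65Aw of 121), mesoderm and muscle regulators (lmd, a myoblast zinc finger protein, of 17) and axon guidance (Dscam2 of 20). No such gene was found among the mitochondrial ribosomal proteins (73), proteasome (48), cell cycle and replication (32), nicotinic, GABA and glutamate receptors (28), Polycomb and Trithorax genes (23), neuronal regulators (19), insulator proteins, ecdysone response genes or germ line genes (13 each) and Hox genes (8). Ribosomal protein genes, of which 58.1% had an IDR summit, thus gained 1.08% from the members.

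**Figure D4:**
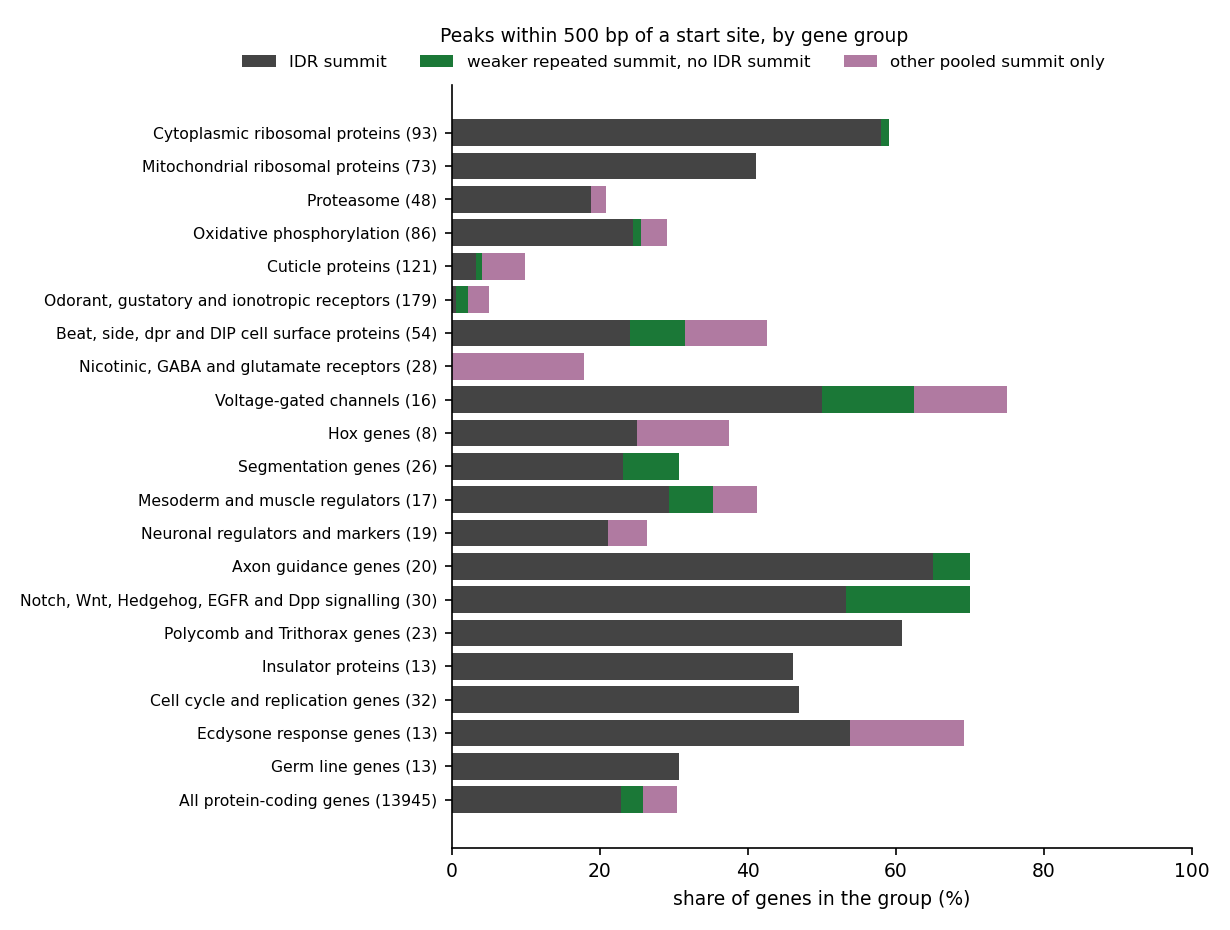
Share of genes in each listed group (x axis, percent; group size in parentheses) with an IDR summit, with a weaker repeated summit and no IDR summit, or with other pooled summits only, within 500 bp of a start site. The green stretch is longest for the signalling genes, 16.7% against 2.86% of all protein-coding genes; the groups were not tested.

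Most members lay inside or between genes, away from start sites, and the genes whose bodies held them were long as a set. The bodies of 1315 protein-coding genes held at least 1 member. Their median length was 20.6 kb, against 2.17 kb for all protein-coding genes. Long genes offer more room for peaks, and the counts were not scaled by length. Lengths of genes that held IDR or other pooled peaks were not compared. The most were in kirre, an immunoglobulin-type protein of myoblast fusion, with 36 members in 394 kb (X, 2740384 to 3134532), beside 55 IDR and 66 other summits. Next came hth and pum, the latter a translational repressor, with 21 each in 132 and 171 kb. The RNA-binding protein gene heph held 20, and Eip63E, a cyclin-dependent kinase gene, 19. The gene klar also held 19, tied with Eip63E for the last of the 5 places taken by the naming rule. In hth, pum, heph and Eip63E the IDR peaks were also many, with 29, 27, 15 and 19. Other pooled peaks there outnumbered both, with 68, 67, 54 and 39. For 198 genes the body held a member but neither the body nor the start sites held an IDR summit, and the median length of these was 4.80 kb. Along the arms the members were spread at 43.4 per Mb on 2L, 29.0 on 2R, 44.7 on 3L, 37.1 on 3R and 42.8 on X. Arm 4, small and mostly heterochromatic, held 7, or 5.26 per Mb. The IDR peaks had the lowest densities on the same 2 arms, 65.4 on 2R and 6.76 on 4. So did the other pooled peaks, with 83.5 on 2R and 7.51 on 4.

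Members lay in A and T rich sequence, to a degree between the IDR peaks and the other peaks. Within 50 bp of the summit the mean GC content was 37.2% ± 10.6 (SD over 5203 peaks), against 33.3% in IDR peaks, 40.2% in other peaks and 42.2% over the 6 arms. In the replicate lists, around each replicate's own summits, it was 37.6%, 37.4% and 37.4% for members. IDR peaks had 33.7%, 33.3% and 33.6% there, and other peaks 40.8%, 39.1% and 40.5%. Member summits in the 3 lists mark the same loci by the rule, so these values are no independent repeat. The dip was local: member GC was 39.2% from 51 bp out to 100 bp, 41.5% in the next 50 bp and 42.4% at 151 to 200 bp. Runs of at least 6 A or T covered a mean of 22.3 bases of this window in members, 27.0 in IDR peaks and 18.5 in other peaks.

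**Figure D5:**
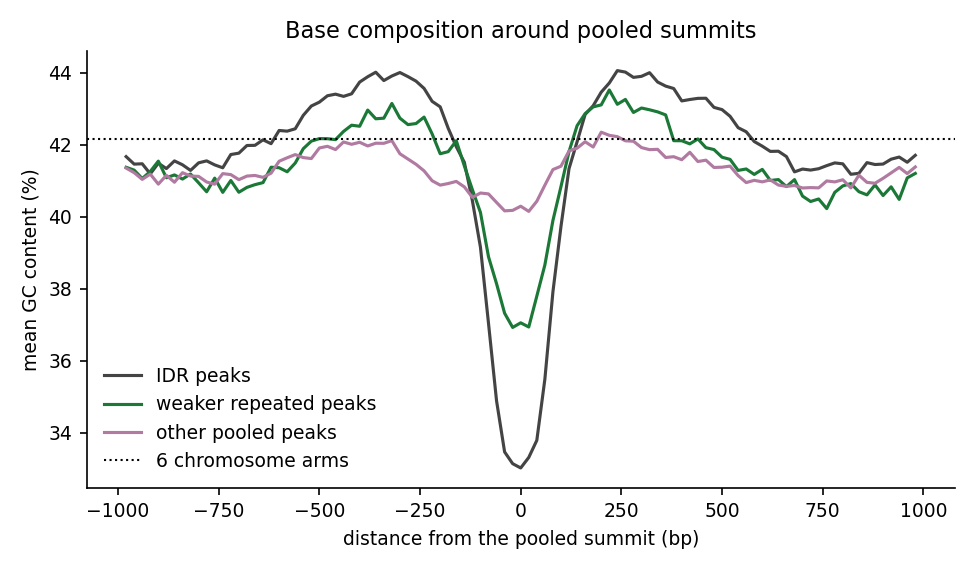
Mean GC content in a sliding window of 21 bp (y axis, percent) by distance from the pooled summit (x axis, bp) for IDR peaks, weaker repeated peaks and other pooled peaks; the dotted line is the mean over the 6 chromosome arms (42.2%). The lowest values within 50 bp of the summit are 33.0% in IDR peaks, 36.9% in weaker repeated peaks and 40.2% in other peaks; the axis does not start at 0.

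With promoter class in a linear regression and clustered errors, members exceeded IDR peaks by 4.38 percentage points of GC (4.02 to 4.75, Wald p = 5.98e-123, n = 15853 peaks), a comparison in which strength and set cannot be told apart. Mean GC showed no step at the IDR line. It was 35.0% in IDR peaks of ranks 8001 to 10650 and 35.0% in members of ranks 10651 to 12000. Other peaks of ranks 10651 to 12000 had 39.0%. At ranks 20001 to 25000 members had 40.1% and other peaks 40.3%. At equal pooled strength members were 1.37 points below other peaks (-1.79 to -0.954, Wald p = 1.27e-10, n = 19350 peaks). This second difference depends on the matching: it was 0.524 points above when replicate 2 was not required (p = 0.00359), and 0.462 points above with matches within 200 bp (p = 0.011, n = 19350 peaks). Its direction therefore changes with the matching. By place, chosen after the data were seen, the difference was -0.0629 at promoters (adjusted p = 0.905), -1.35 in introns (adjusted p = 3.17e-06, n = 9710 peaks) and -2.04 between genes (adjusted p = 1.44e-06, n = 5648 peaks). The intergenic difference exceeded that at promoters by -1.98 points (-3.29 to -0.663, p = 0.00319, n = 8670 peaks). Without replicate 2 the 3 values were 1.20, 0.587 and 0.222, all in the opposite direction.

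Promoter members had a GC content of 41.1%, nearly that of other promoter peaks (41.5%) and above IDR promoter peaks (35.2%). In introns members had 36.8%, IDR peaks 32.2% and other peaks 39.7%, and between genes 35.1%, 31.6% and 39.8%. The gap between members and IDR peaks was thus smaller in introns and between genes than at promoters. In introns, members were still nearer to the other peaks than to the IDR peaks. These gaps are raw means, not at equal strength, and were not tested.

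Preset short words, searched on both strands within 50 bp of the summit, did not set members apart from the other peaks. TATAAA was found in 18.6% of member windows, 24.1% of IDR windows, 14.5% of other windows and 11.7% of 1323188 windows of the same length across the arms. ATATTA, which like TATAAA consists of A and T only, was in 15.5% of member windows, 22.2% of IDR windows and 11.2% of other windows. With GC content, promoter class and strength in the regression, 0 of 18 words passed the threshold against other peaks (logistic regression, Wald test, adjusted over 18 words), 0 had an unadjusted p under 0.05, and the smallest unadjusted p was 0.0859, for CCCTC. The TATAAA odds ratio was 0.980 (0.873 to 1.10). Against IDR peaks, with GC content and promoter class in the regression, 1 of 18 passed: CCCTC, in 8.38% of member windows and 4.88% of IDR windows, with an odds ratio of 1.29 (1.12 to 1.48, adjusted p = 0.00668, n = 15853 peaks). When replicate 3 was not required it was 1.19 (adjusted p = 0.126, n = 18454 peaks), and no longer past the threshold. The count of words past it was 4 when either replicate 1 or replicate 2 was not required, 6 with matches within 200 bp, and 2 with only the strongest summit of each region. The word CACACA was among them each time, with odds ratios of 1.19, 1.19, 1.22 and 1.22. A word in a window is a match of letters and not a known site of CG11504.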

How the data were processed

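Peak lists from ChIP-seq of 3 biological replicates (1 group, grouped by the labels) were used in dm6 coordinates, 1 list for each replicate, 1 pooled and 1 IDR list. The signal of each peak, its −log10 q-value and the offset of its summit from the peak start are the authors' deposited values. Per the files deposited beside them, replicate and pooled lists have 1 control alignment, and the IDR list comes from both kinds. What aligned the reads, called and filtered the peaks is not stated there, and read depth is unknown, so intervals cover counts of peaks only. Members and gene lists were chosen with earlier results of these data known. Summits were matched by position (largest distance 100 bp). Each summit took 1 of 7 position classes, promoters first, then exon types, introns and intergenic sequence, by Ensembl release 115 (BDGP6.54, the same coordinates), on 6 arms. Sequence and soft masking came from the NCBI genome of the same assembly. Of 912 listed gene symbols, 0 stayed unmatched; 5 were matched by an older name. Regressions over all pooled peaks of the sets compared (statsmodels 0.14.6) had errors clustered on 100 kb windows; they were checked on simulated data. Peaks are not independent replicates, and an exact sign permutation over replicates stands beside the comparison with other peaks, with matched summits of members at the same loci in each list. Named genes followed a rule: nearest start to the 15 strongest members and to the 5 strongest over 2 kb from a start, the 5 gene bodies with most members, up to 4 genes for each group with 3 or more members-only genes and otherwise 1, and members at the limits of the rule. Shal, ftz, arm, the 13 members ranked high in each replicate, and the hh and arm windows were added after their values were seen, as were the side of the start site, nearness to IDR summits and GC by place. Alternatives changed the matching distance, start site window, replicates required, summits kept, rank range and strength term. Other tools were Python 3.11.15, numpy 2.4.6, pandas 2.3.3, scipy 1.17.1 and matplotlib 3.10.9.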

Additional observations from a re-analysis of the deposited data

How the results depend on the processing

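The count of 5203 weaker repeated peaks was 2622 with summits matched within 50 bp and 8090 within 200 bp, and 7207 to 7804 when 1 replicate was not required, since fewer lists then had to match. Genes with such a peak and no IDR peak numbered 197 within 50 bp, and 519 to 537 with a replicate not required. The comparisons of promoter, intron and intergenic shares and of GC content with IDR peaks kept direction and side of the threshold in all 10 alternatives each, with promoter odds ratios of 0.354 to 0.438. Against other pooled peaks, the promoter odds ratio was 0.712 to 0.818 under the alternatives at equal strength that kept 3 replicates, 0.775 to 0.848 with 1 replicate not required, 0.725 with strength in strata of 1000 ranks (chosen after seeing the data), and 1.10, reversed, without a strength term. The intergenic odds ratio was 0.978 to 1.26 with a replicate not required and 1.02 without a strength term. The intron odds ratio was 0.970 to 1.15 with a replicate not required and 1.11, past the threshold, with a start site window of 1000 bp. The GC difference from other peaks was -1.54 to 0.524 points with a replicate not required and 0.462 within 200 bp. Within 200 bp its values were 0.552 in introns and 0.0441 between genes. With a replicate not required, the GC difference ran from -1.41 to 1.20 at promoters, from -1.88 to 0.587 in introns and from -1.73 to 0.222 between genes. The odds ratio of an IDR summit within 500 bp was 2.49 with matches within 200 bp. The causes of these changes were not tested. Of 216 alternatives for words against other peaks, 0 passed the threshold. No paired analysis was possible because there is 1 group, and the differences within replicate lists are between sets of peaks, not groups of samples. The replicates share a control, depth is unknown, each list stops at 30000 peaks, and no untagged library was used, so peaks shared by GFP experiments cannot be told apart from those of CG11504.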
